A study of Mus musculus with 9 samples.

Results

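The genes described here are 51 regulators and markers of the cell division cycle in mouse embryonic stem (ES) cells, taken by gene symbol from a fixed list: 14 cyclins, cyclin-dependent kinases (CDKs), a CDK-activating phosphatase and inhibitors of the G1 phase, 11 members of the E2F and Rb families, 10 genes of DNA replication, and 16 genes of G2 and mitosis. All 51 were present among the 40213 symbols counted, and all 51 passed the low-count filter that left 16562 genes for testing. The counts come from total-RNA sequencing of 3 groups of 3 libraries, all from ES cells kept in ESC medium with the self-renewal cytokine LIF. The control is J1, a widely used ES cell line. The other groups, called the OCT4 and EWS-OCT4 lines, are stable Niwa lines that carry OCT4, a transcription factor on which pluripotency depends, or OCT4 fused to EWS, a protein that binds RNA. Both stable lines received doxycycline at 1 µg/ml to lower their own OCT4, and the labels do not say whether J1 received it. The study asks whether the fusion can take the place of OCT4 in self-renewal. Each group has 1 cell line name, so construct, host line and any clonal difference change together against J1. Whether replicates came from separate cultures is not stated, so p-values cover only how these libraries varied, and that variation may be technical.

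In G1, D-type cyclins with CDK4 or CDK6, and then E-type cyclins with CDK2, phosphorylate the retinoblastoma proteins and so release E2F transcription factors, which switch on genes for DNA synthesis. INK4 inhibitors, encoded by Cdkn2a to Cdkn2d, block CDK4 and CDK6, and Cdkn1b encodes p27, which blocks cyclin E-CDK2. The MCM helicase is loaded on DNA by Cdc6 and Cdt1 before S phase, geminin prevents a second loading, and cyclin A and cyclin B with CDK1 drive G2 and mitosis. ES cells are known for a short G1 phase, high cyclin E-CDK2 activity and low levels of CDK inhibitors.

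Promoter windows of 300 bases, from 250 before to 50 after a gene start, were found in RefSeq (build GRCm38.p6) for 39 of the 51 members. Some members had more than 1 window, and a gene was counted if any of its windows held the letters. Whether a window belongs to the main transcript of its gene was not checked, so some may lie inside genes. E2F-type letters (TTTCGCGC, TTTCCCGC, TTTGGCGC or TTTGCCGC, on either strand) were present in windows of 6 of 8 replication members, 4 of 8 E2F and Rb members, 3 of 11 G1 members and 1 of 12 G2 and mitosis members. Of the 12526 tested genes with a window, 4.52% held them. The letters TTTGAA, the core of the cell cycle homology region bound by the MuvB complex, and CCAAT, the core of the NF-Y site, stood on either strand in 8 of 12 and 11 of 12 windows of G2 and mitosis members, against 14.8% and 43.3% of tested genes. These counts describe letters, not binding, and 1 E2F match, in an Mcm7 window, overlapped a CCAAT or TTTGAA match. The 250 bases before the start of 3 helicase genes are shown first, and all 3 windows shown hold E2F letters, in capitals. They were chosen since Mcm5 and Mcm7 differed between the stable lines and Mcm6 did not pass the test. Another Mcm7 window (chr5:138171217-138171516), not shown, holds no E2F letters. The runs of capitals longer than 8 letters in Mcm5 and Mcm6 are 2 overlapping matches on opposite strands.
Mcm5 (chr8:75109259-75109508, + strand): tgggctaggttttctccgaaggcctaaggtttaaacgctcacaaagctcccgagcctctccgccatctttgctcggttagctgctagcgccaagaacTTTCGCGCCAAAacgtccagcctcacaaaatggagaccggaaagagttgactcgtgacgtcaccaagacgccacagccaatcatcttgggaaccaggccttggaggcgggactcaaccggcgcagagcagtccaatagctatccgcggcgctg
Mcm6 (chr1:128359706-128359955, - strand): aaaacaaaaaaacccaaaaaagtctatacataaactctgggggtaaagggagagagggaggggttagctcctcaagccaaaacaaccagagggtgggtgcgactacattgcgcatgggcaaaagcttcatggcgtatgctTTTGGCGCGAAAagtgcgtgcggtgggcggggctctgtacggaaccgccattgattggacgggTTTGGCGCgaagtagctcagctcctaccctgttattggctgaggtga
Mcm7 (chr5:138171884-138172133, - strand): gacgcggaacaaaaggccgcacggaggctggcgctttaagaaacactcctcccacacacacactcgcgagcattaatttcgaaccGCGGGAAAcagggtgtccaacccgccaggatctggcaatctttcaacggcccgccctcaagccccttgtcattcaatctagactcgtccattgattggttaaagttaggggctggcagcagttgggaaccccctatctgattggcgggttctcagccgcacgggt
The next 3 windows carry TTTGAA and CCAAT or their reverse complements in capitals, and belong to Top2a and Mki67, the mitosis members with the highest mean CPM in J1, and to E2f8, which changed most within the E2F family between the stable lines.
Top2a (chr11:99024190-99024439, - strand): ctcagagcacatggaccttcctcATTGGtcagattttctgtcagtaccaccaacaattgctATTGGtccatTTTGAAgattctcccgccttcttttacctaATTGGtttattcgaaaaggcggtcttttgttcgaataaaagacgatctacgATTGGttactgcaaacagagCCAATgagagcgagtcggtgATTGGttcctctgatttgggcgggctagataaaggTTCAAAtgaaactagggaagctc
Mki67 (chr7:135716380-135716629, - strand): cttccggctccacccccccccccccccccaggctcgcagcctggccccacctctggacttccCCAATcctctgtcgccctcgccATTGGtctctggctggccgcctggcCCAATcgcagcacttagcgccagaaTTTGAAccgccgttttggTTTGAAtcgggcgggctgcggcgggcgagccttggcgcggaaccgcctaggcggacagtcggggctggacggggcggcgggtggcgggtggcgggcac
E2f8 (chr7:48881597-48881846, - strand): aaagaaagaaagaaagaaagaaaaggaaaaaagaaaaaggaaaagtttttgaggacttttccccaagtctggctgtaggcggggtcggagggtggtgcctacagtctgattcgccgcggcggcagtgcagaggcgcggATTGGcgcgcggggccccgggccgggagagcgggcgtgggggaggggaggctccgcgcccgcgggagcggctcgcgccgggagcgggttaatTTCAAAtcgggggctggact

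Most members with a called change of at least 2-fold against J1 were G1 regulators, 9 of 11 in OCT4 cells and 3 of 4 in EWS-OCT4 cells, and the others were E2f4, E2f8 and Top2a. Out of 14 G1 members these were 9 and 3, beside 26.5% and 20.5% of all tested genes. The EWS-OCT4 count is thus near the background. Among the 9, Ccnd2 and the INK4 genes were scarce, with group means of at most 8.29 CPM. The 3 include Cdkn2c, with 14 counts over the J1 libraries. The OCT4 line had more RNA of Ccnd3 and of all 5 CDK inhibitors among the members than J1, and less of Ccne1, Cdk6, E2f4 and E2f8. The EWS-OCT4 line shared the high Ccnd3 and Cdkn1b with the OCT4 line, but had Ccne1 and E2f8 above the J1 level and Cdk6 close to it. Against J1, 16 of the 51 members were higher and 17 lower in OCT4 cells at an adjusted p under 0.05 (quasi-likelihood test of edgeR), where 34.3% and 32.7% of all tested genes were. In the EWS-OCT4 line 21 were higher and 9 lower than in J1, beside 30.3% and 31.6% of all tested genes. Between the stable lines, 24 members were higher and 12 were lower in the EWS-OCT4 line, beside 31.9% and 34.6%. Calls in either direction came to 64.7%, 58.8% and 70.6% of the members in these 3 comparisons, near the background of 67%, 61.9% and 66.5%, so the number of members called is not a result about them. Changes of at least 2-fold were called for 11, 4 and 5 members, beside 26.5%, 20.5% and 24.3% of all tested genes. Split by direction, 6 higher and 5 lower members passed 2-fold in the OCT4 line against J1, beside 15% and 11.5% of all tested genes. The EWS-OCT4 line had 3 and 1 against J1, beside 8.1% and 12.5%, and 3 and 2 against the OCT4 line, beside 8.54% and 15.8%. Both comparisons with J1 share its 3 libraries.

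**Figure D1:**
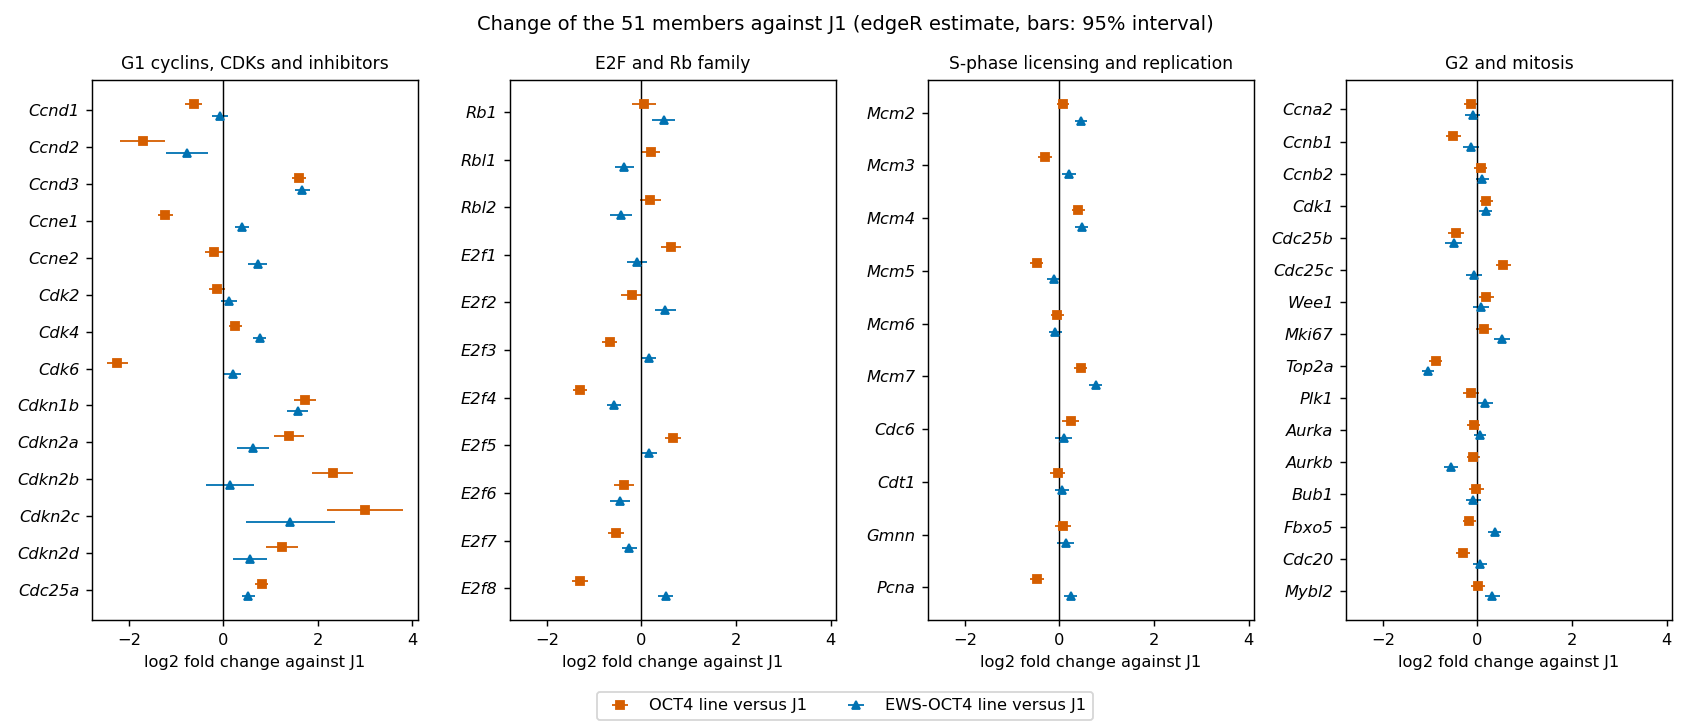
Log2 fold change of each member against J1 (x axis) for the OCT4 line (squares) and the EWS-OCT4 line (triangles), in 4 panels by phase, with bars for the 95% interval of the edgeR estimate. The wide spread is in the G1 panel, from -2.25 for Cdk6 to 2.99 for Cdkn2c in the OCT4 line, while the replication panel stays between -0.48 and 0.77.

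Library totals ran from 21149358 to 24786305 counts, and the 51 members together took 0.708% to 0.808% of all counts. Levels below are CPM, a gene's counts per 1000000 of a library's TMM-scaled total over tested genes, and a fold change is edgeR's log2 estimate with its standard error (SE). As a check of the labels, Pou5f1, the mouse gene for OCT4, stood at 569 ± 61.8 CPM (SD, n = 3) in J1, against 26.8 ± 2.12 for EWS-OCT4 and 165 ± 2.61 for OCT4, and these counts do not separate the endogenous gene from the introduced construct. Nanog and Sox2, which mark ES cells, had at least 249.8 and 541 CPM in every library. Of the 5 ES cell markers 4 were lower in the OCT4 line than in J1 and 3 in the EWS-OCT4 line. Nanog was higher than in J1 in both, at 509 ± 18.5 (OCT4) and 481 ± 5.26 (EWS-OCT4) against 261 ± 13.8 CPM. The sum of the 5 was 3249.6 to 3648 CPM in J1, 1973 to 2031 with OCT4 and 2243 to 2339 with EWS-OCT4. Zfp42, or Rex1, a marker of naive ES cells, stood at 1425 ± 114, 429 ± 19.2 and 758 ± 27.4 CPM in that order. Summed over 8 trophectoderm markers, the OCT4 line had 333 to 359 CPM, above J1 at 94.6 to 111 and the EWS-OCT4 line at 132 to 136. Tfap2c led that sum in each group, at 91.0 ± 6.46 CPM in J1, 215 ± 3.25 with OCT4 and 104 ± 2.84 with EWS-OCT4. In that list 6 of 8 markers were higher in the OCT4 line than in J1, with Hand1 at 78.2 ± 8.71 against 1.78 ± 0.251 CPM and the defining factor Cdx2 at 7.96 ± 1.24 against 0.0581 ± 0.0508. In the EWS-OCT4 line 5 of the 8 were higher than in J1. Summed over 8 fibroblast markers, of which 4 passed the low-count filter, J1 had 83.3 to 101, the OCT4 line 48.2 to 53.7 and the EWS-OCT4 line 24.5 to 29.0 CPM. Thy1 led that sum in each group, at 44.9 ± 6.47 CPM in J1, and Dcn and Lum were at or near 0 in every library. Summed over 8 primitive endoderm markers the ranges were 40.4 to 48.6, 23.1 to 25.8 and 10.7 to 12.2, and 4 of them were lower than in J1 in OCT4 cells and 6 in EWS-OCT4 cells. Against that direction, Gata6 stood at 9.34 ± 0.529 CPM in the OCT4 line and 1.76 ± 0.753 in J1. Sox7 was higher in the EWS-OCT4 line, at 2.71 ± 0.321 against 0.596 ± 0.354 CPM in J1. The part of these markers in the results below was not tested, and in such bulk libraries more cells with a transcript cannot be told apart from more transcript per cell.

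Among the 3 D-type cyclins, which couple growth signals to G1 entry, Ccnd3 was higher and Ccnd2 lower in both stable lines, compared with J1. Ccnd3 stood at 69.7, 78.5 and 66.8 CPM in the 3 J1 libraries, 204, 225 and 224 in the OCT4 libraries and 224, 233 and 229 in the EWS-OCT4 libraries. All 6 libraries of the stable lines lay above all J1 libraries, and the 2 lines overlapped. The fold change against J1 was 1.60 (SE 0.0739, adjusted p = 3.49e-12) for OCT4 cells and 1.67 (SE 0.0740, adjusted p = 5.52e-12) for EWS-OCT4 cells by edgeR, and 0.07 between the lines, with a 95% interval of -0.08 to 0.22. For Ccnd1 the libraries had 49.8, 53.7 and 51.1 CPM in J1, 30.7, 37.4 and 31.8 in OCT4 cells and 52.4, 48.9 and 46.0 in EWS-OCT4 cells. Here the OCT4 line lay below the other groups, with a log2 fold change of -0.63 (SE 0.0827) against J1, while the EWS-OCT4 line overlapped J1 (-0.07, interval -0.24 to 0.10). Ccnd2 was the scarcest, with 4.74, 7.26 and 7.0 CPM in the 3 J1 libraries, 2.03, 2.44 and 1.34 in the OCT4 libraries and 3.41, 4.59 and 3.12 in the EWS-OCT4 libraries. It fell against J1 by 1.71 (log2, SE 0.227) in OCT4 cells and by 0.77 (SE 0.209) in EWS-OCT4 cells. Scaled to the length of each gene's longest coding transcript (GENCODE M21), Ccnd3 made up 68.2% to 70.5% of D-type cyclin RNA in the J1 libraries, 91.1% to 92.4% in the OCT4 libraries and 87.9% to 89.4% in the EWS-OCT4 libraries. The share of Ccnd1 was 27.3% to 29.4%, 7.40% to 8.56% and 10.2% to 11.6% in the same order.

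Cyclin E RNA separated the stable lines. Ccne1, which encodes the cyclin that activates CDK2 at the G1/S transition, had 158, 155 and 145 CPM in the 3 J1 libraries, 68.7, 58.5 and 68.2 in the OCT4 libraries and 198, 200.3 and 204 in the EWS-OCT4 libraries. The 3 groups did not overlap, with the OCT4 line lowest and the EWS-OCT4 line highest. Its fold change was -1.23 (SE 0.0730, adjusted p = 9.66e-11) in the OCT4 line against J1, 0.39 (SE 0.0708, adjusted p = 0.000115) in the EWS-OCT4 line against J1 and 1.62 (SE 0.0735, adjusted p = 3.64e-12) between the lines by edgeR, a 3.08-fold difference. Ccne2, its paralog, stood at 14.9, 13.6 and 14.6 CPM in J1, 12.6, 11.7 and 13.5 in OCT4 cells and 21.7, 23.7 and 25.9 in EWS-OCT4 cells. It was higher in the EWS-OCT4 line than in J1 (0.73, SE 0.0937) and than in the OCT4 line (0.92, SE 0.0952), and the difference of the OCT4 line from J1 did not pass (-0.19, interval -0.40 to 0.015). Cdk2, the kinase partner of cyclin E, differed little, at 39.1 ± 4.02 CPM in J1, 42.7 ± 0.774 with EWS-OCT4 and 35.7 ± 1.47 with OCT4 (SD, n = 3). Only the difference between the stable lines was called for it (0.26, SE 0.0798). Cdc25a, a phosphatase that activates CDK2, went the other way from Ccne1 in the OCT4 line, with 97.9, 108 and 102 CPM against 60.3, 56.7 and 58.6 in J1 (0.81, SE 0.0645). The EWS-OCT4 line lay between them at 82.9, 83.2 and 86.5 CPM.

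Cdk6, a partner of the D-type cyclins, showed the widest fall against J1 of the 51 members. Its libraries had 20.8, 19.9 and 20.9 CPM in the 3 J1 libraries, 4.43, 4.79 and 3.78 in the OCT4 libraries and 23.3, 24.4 and 22.9 in the EWS-OCT4 libraries. The OCT4 libraries lay far below the others, a 4.74-fold lower level than in J1 with a log2 fold change of -2.25 (SE 0.104, adjusted p = 3.54e-12) by edgeR. The EWS-OCT4 line was 5.43-fold above the OCT4 line (2.44, SE 0.103), and its libraries lay just above those of J1, a difference that did not pass the test (0.20, adjusted p = 0.0583, interval 0.013 to 0.38). It passed with limma-voom and without OCT4 replicate 3. Cdk4, the other partner, rose in both lines, at 108, 101 and 97.3 CPM in J1, 119, 121 and 127 in OCT4 cells and 178, 172 and 174 in EWS-OCT4 cells. Its fold change against J1 was 0.26 (SE 0.0650) and 0.77 (SE 0.0650). Per kilobase of the longest coding transcript, Cdk4 had 49.8, 59.5 and 85.1 CPM and Cdk6 1.78, 0.376 and 2.04 CPM in J1, OCT4 cells and EWS-OCT4 cells, so Cdk4 was the more abundant of the pair in each group.

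All 5 CDK inhibitors among the members were higher in the OCT4 line than in J1, and 4 of the 5 in the EWS-OCT4 line. Over all tested genes 34.3% and 30.3% were higher in these comparisons. Outside the members, Cdkn1a was higher than J1 in the OCT4 line and lower in the EWS-OCT4 line, and Cdkn1c was higher in both. Cdkn1b had 8.40, 9.30 and 11.2 CPM in the 3 J1 libraries, 32.5, 34.9 and 27.9 in the OCT4 libraries and 28.3, 29.6 and 27.5 in the EWS-OCT4 libraries. Both stable lines lay above J1 (1.73, SE 0.109, adjusted p = 2.17e-10 and 1.57, SE 0.109, adjusted p = 1.63e-09 by edgeR) and overlapped each other (-0.16, interval -0.37 to 0.053). The INK4 genes separated the lines. Cdkn2b, which encodes p15, had 1.25, 2.11 and 1.27 CPM in J1, 7.25, 8.63 and 7.27 in OCT4 cells and 1.97, 1.34 and 1.85 in EWS-OCT4 cells. Only the OCT4 libraries stood apart, 4.95-fold above J1 (2.31, SE 0.205) and 4.48-fold above the EWS-OCT4 line. The EWS-OCT4 line differed from J1 by 0.15 with an interval of -0.36 to 0.65. Cdkn2a, whose transcripts encode p16 and, in another frame, p19Arf, stood at 2.65, 3.91 and 2.96 CPM in the 3 J1 libraries, 8.08, 8.18 and 8.61 in the OCT4 libraries and 5.0, 5.19 and 4.59 in the EWS-OCT4 libraries. The order J1, EWS-OCT4, OCT4 held without overlap, with fold changes against J1 of 1.38 (SE 0.151) for OCT4 cells and 0.63 (SE 0.158) for EWS-OCT4 cells, and counts per gene do not separate the 2 products. Cdkn2d, which encodes p19Ink4d, followed the same order, at 2.45, 2.83 and 2.07, then 3.94, 3.72 and 3.24 and 6.05, 5.42 and 6.01 CPM. Its fold change against J1 was 1.24 (SE 0.163) in OCT4 cells and 0.56 (SE 0.170) in EWS-OCT4 cells. Cdkn2c, which encodes p18, was near the limit of detection, with 14 counts over the 3 J1 libraries, 108 over the OCT4 libraries and 36 over the EWS-OCT4 libraries. It was called higher against J1 in both lines (2.99, SE 0.383 and 1.42, SE 0.448), and its size rests on those few J1 counts. In the comparison of the stable lines all 4 INK4 genes had less RNA in EWS-OCT4 cells, beside 34.6% of all tested genes called lower. The log2 differences were 2.16, 1.58, 0.75 and 0.68 for Cdkn2b, Cdkn2c, Cdkn2a and Cdkn2d. Tfap2c, Hand1 and Cdx2, the trophectoderm markers named above, were also highest in the OCT4 line. Of the 8 listed, 5 were called lower in the EWS-OCT4 than in the OCT4 line and 2 were not called. Krt7 went the other way, higher in the EWS-OCT4 line (0.61 on the log2 scale). The part of these markers in the inhibitor levels was not tested.

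**Figure D2:**
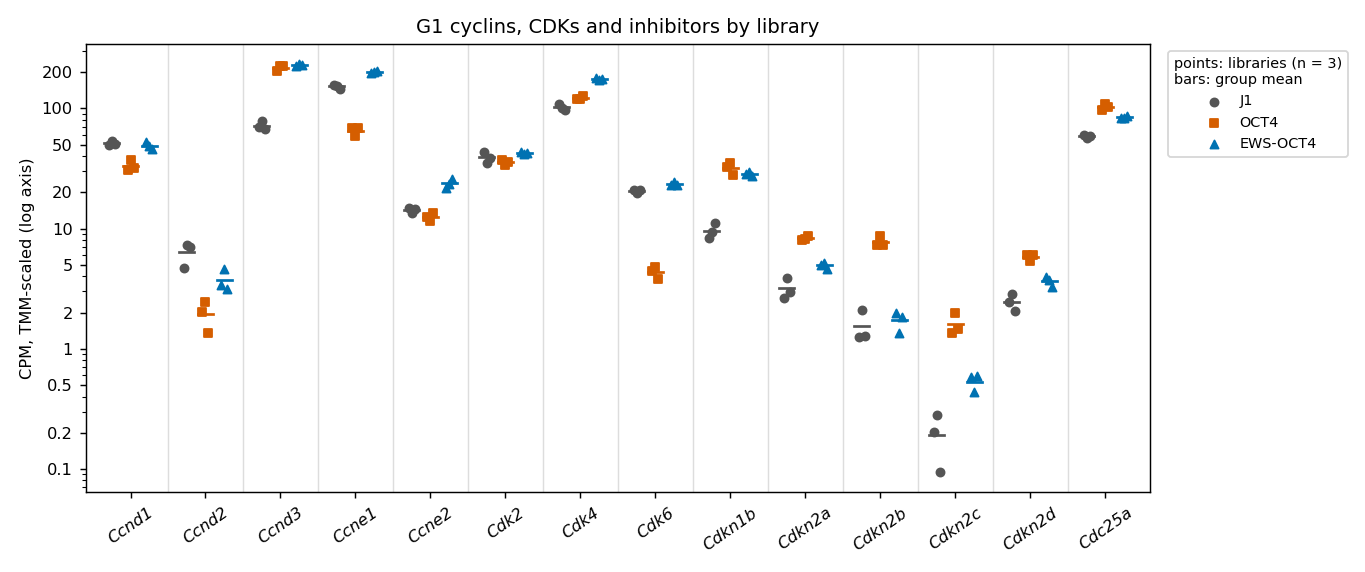
CPM (TMM-scaled, log axis) of the 14 G1 members in each library, with circles for J1, squares for the OCT4 line, triangles for the EWS-OCT4 line and a bar at each group mean (n = 3). Ccne1 and Cdk6 sit low in the OCT4 line, Ccnd3 and Cdkn1b sit high in both stable lines, and Cdkn2b sits high in the OCT4 line.

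Of the 14 G1 members, 8 were higher and 4 lower in the OCT4 line than in J1, and 9 and 1 in the EWS-OCT4 line. Between the stable lines 7 were higher and 5 were lower in the EWS-OCT4 line. Their median log2 fold change was 0.53, 0.54 and 0.17 in these comparisons, beside medians over all tested genes of 0.0062, 0.0026 and -0.035. In either direction 85.7%, 71.4% and 85.7% of the list were called, beside 67%, 61.9% and 66.5% of all tested genes. Changes of at least 2-fold against J1 were called for 9 of the 14 in OCT4 cells and 3 in EWS-OCT4 cells, beside 26.5% and 20.5% of all tested genes. The EWS-OCT4 count at 2-fold is near that share.

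In the E2F family, the repressor E2f8 differed most between the stable lines. E2f8, which with E2f7 turns E2F targets down late in the cycle, had 72.5, 65.5 and 79.6 CPM in the 3 J1 libraries, 30.0, 28.6 and 30.2 in the OCT4 libraries and 96.2, 109 and 105 in the EWS-OCT4 libraries. The groups did not overlap, and the order was OCT4, J1, EWS-OCT4. The log2 fold change was -1.29 (SE 0.0804, adjusted p = 1.79e-10) for the OCT4 line against J1, 0.51 (SE 0.0763, adjusted p = 1.66e-05) for the EWS-OCT4 line against J1 and 1.80 (SE 0.0806, adjusted p = 3.14e-12) between the lines by edgeR, 3.49-fold. E2f7 was lower in both lines than in J1, at means of 33.5 ± 2.16 (OCT4) and 41.0 ± 3.09 (EWS-OCT4) against 48.9 ± 2.92 CPM (SD, n = 3). The EWS-OCT4 call for it (-0.25, adjusted p = 0.0103) was lost without EWS-OCT4 replicate 1 or J1 replicate 3. The activators E2f1, E2f2 and E2f3, which drive entry into S phase, did not move together. E2f1 stood at 24.9, 31.0 and 24.5 CPM in the 3 J1 libraries, 37.3, 41.7 and 45.5 in the OCT4 libraries and 23.7, 25.7 and 25.7 in the EWS-OCT4 libraries. Only the OCT4 line was set apart, higher than J1 by 0.63 (SE 0.0974). E2f3 took the opposite direction, with 33.8, 36.3 and 30.5 CPM in the OCT4 line against 54.8, 52.0 and 53.0 in J1 and 60.5, 60.5 and 57.1 in the EWS-OCT4 line (-0.67, SE 0.0745 for the OCT4 line against J1). E2f2 was higher in the EWS-OCT4 line, at 23.0, 22.8 and 23.0 CPM, than in J1 at 14.3, 19.2 and 14.8 and the OCT4 line at 14.3, 13.8 and 13.9.

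E2f4, a factor that represses with the pocket proteins p107 and p130 in resting cells, fell in both lines. It had 226, 251 and 224 CPM in the 3 J1 libraries, 98.6, 91.5 and 94.1 in the OCT4 libraries and 151, 162 and 157 in the EWS-OCT4 libraries. The groups did not overlap, and the fold change against J1 was -1.30 (SE 0.0687, adjusted p = 2.04e-11) in OCT4 cells and -0.58 (SE 0.0674, adjusted p = 1.02e-06) in EWS-OCT4 cells by edgeR. Per kilobase of the longest coding transcript it was the most abundant E2F RNA in each group, at 117, 47.5 and 78.7 CPM, against 19.7, 9.73 and 10.5 for E2f8, E2f1 and E2f3 in J1. E2f5, its closest relative, rose in the OCT4 line (38.0, 34.3 and 35.2 against 24.7, 21.6 and 21.2 CPM in J1, 0.67, SE 0.0820) and did not pass in the EWS-OCT4 line (0.16). E2f6, a repressor that does not bind pocket proteins, was lower than in J1 in both lines (-0.36, SE 0.101 and -0.46, SE 0.101).

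The Rb family split in the EWS-OCT4 line. Rb1 stood at 101, 71.5 and 94.3 CPM in the 3 J1 libraries, 105, 87.1 and 85.7 in the OCT4 libraries and 133, 117 and 119 in the EWS-OCT4 libraries. It was higher in the EWS-OCT4 line than in J1 (0.47, SE 0.114) and the OCT4 line (0.41, SE 0.114), and the other 2 groups overlapped. Rbl1 and Rbl2, which encode p107 and p130, were lower there than in J1, by 0.37 and 0.43 on the log2 scale, and lower than in the OCT4 line, by 0.56 and 0.62. The OCT4 line did not pass against J1 for any of the 3 (0.056, 0.20 and 0.19 for Rb1, Rbl1 and Rbl2), though Rbl1 and Rbl2 passed as higher without J1 replicate 1 and Rbl1 with the replicate block. In all, 2 of the 11 E2F and Rb members were higher and 5 lower in the OCT4 line than in J1, 3 and 5 in the EWS-OCT4 line, and 6 and 4 in the EWS-OCT4 line against the OCT4 line. These calls came to 63.6%, 72.7% and 90.9% of the list, beside 67%, 61.9% and 66.5% of all tested genes. Without J1 replicate 1 the higher counts against J1 were 4 in the OCT4 and 5 in the EWS-OCT4 line.

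**Figure D3:**
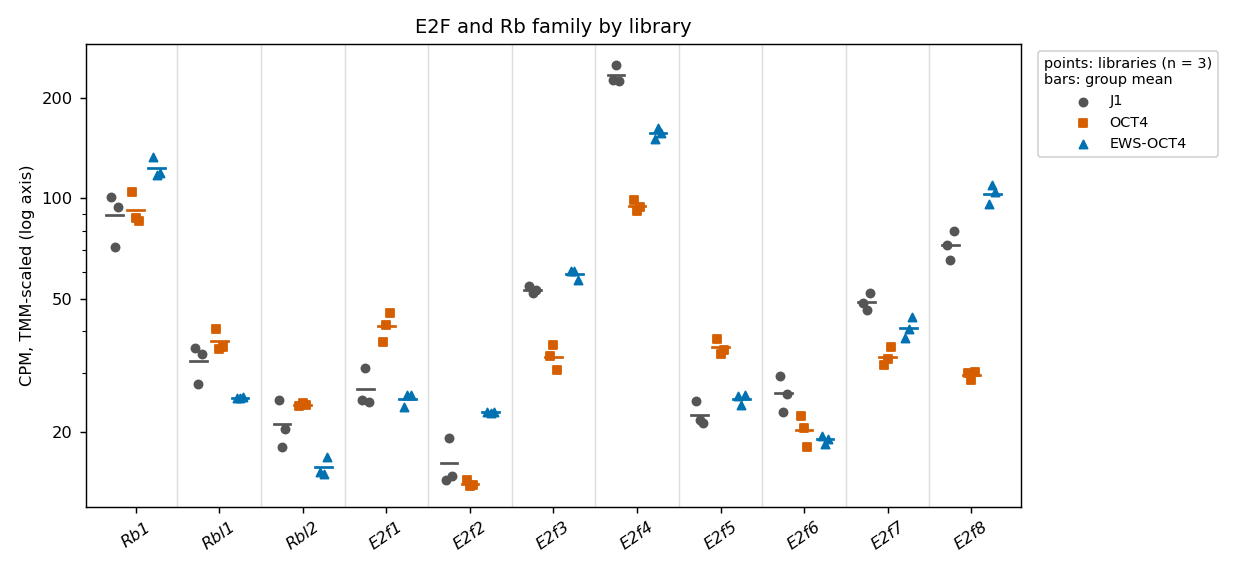
CPM (TMM-scaled, log axis) of the 11 E2F and Rb members in each library, with a bar at each group mean (n = 3). E2f4 is highest in J1 and lowest in the OCT4 line, and E2f8 is lowest in OCT4 cells and highest in EWS-OCT4 cells.

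Of the 10 replication genes, 5 were higher in the EWS-OCT4 than in the OCT4 line, 0 lower and 5 not called, with a median log2 fold change of 0.21. Over all tested genes 31.9% were higher and 34.6% lower, so a smaller share of the list was called than of all genes. Pcna, the sliding clamp of the replication fork, had 239, 206 and 207 CPM in the 3 J1 libraries, 157, 155 and 159.6 in the OCT4 libraries and 258, 253 and 258 in the EWS-OCT4 libraries. The OCT4 line lay below both other groups, with a log2 fold change of -0.47 (SE 0.0690) against J1, and the EWS-OCT4 line above them, by 0.70 (SE 0.0691) over the OCT4 line. Mcm2 stood at 225, 228 and 229.7 CPM in the 3 J1 libraries, 232, 247 and 242 in the OCT4 libraries and 307, 318 and 311 in the EWS-OCT4 libraries. Of the comparisons with J1 that of the EWS-OCT4 line passed (0.45, SE 0.0614), and the OCT4 libraries lay above J1 by 0.078, which did not. Mcm3 had 452, 414 and 435 CPM in the OCT4 line, below J1 at 502, 569 and 547, and 588, 618 and 645 in the EWS-OCT4 line. The last difference from J1 (0.19, adjusted p = 0.0232 by edgeR) was lost in 7 of 20 alternatives, among them without J1 replicate 1 and without EWS-OCT4 replicate 2 or 3. Mcm5 was lowest in the OCT4 line too, at 221 ± 1.97 against 308 ± 21.8 CPM in J1 (SD, n = 3). Mcm7 had 271, 292 and 262 CPM in J1, 374, 385 and 369 with OCT4 and 471, 483 and 451 with EWS-OCT4, and the groups did not overlap. It rose against J1 by 0.45 (SE 0.0662) in OCT4 cells and 0.77 (SE 0.0664) in EWS-OCT4 cells, and Mcm4 rose by 0.40 and 0.47. Mcm6, the third helicase gene shown with E2F letters, was called in no comparison, with 461 ± 26.6 CPM in J1, 448 ± 16.8 with OCT4 and 435 ± 13.3 with EWS-OCT4. The 6 subunits form 1 ring in equal numbers, yet their RNA differed from J1 by -0.48 to 0.45 in OCT4 cells and -0.12 to 0.77 in EWS-OCT4 cells.

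The loading factors differed little. Cdc6 had 71.4, 54.2 and 57.4 CPM in the 3 J1 libraries, 73.9, 73.3 and 68.5 in the OCT4 libraries and 63.3, 65.1 and 66.0 in the EWS-OCT4 libraries. Its call in the OCT4 line against J1 (0.24, adjusted p = 0.0221 by edgeR) came with overlapping groups and was lost without J1 replicate 2 or 3 or without OCT4 replicate 1 or 2. Cdt1 and Gmnn, the gene for geminin, were called in no comparison of the main fit. Without J1 replicate 2, Gmnn passed as higher in EWS-OCT4 cells than in J1 (0.19). Cdt1 differed from J1 by -0.038 (interval -0.19 to 0.12) in OCT4 cells and 0.06 (-0.093 to 0.21) in EWS-OCT4 cells, and Gmnn by 0.071 (-0.10 to 0.24) and 0.13 (-0.042 to 0.30). Against J1, 3 of the 10 replication members were higher and 3 lower in OCT4 cells and 5 and 0 in EWS-OCT4 cells. That is 60% and 50% of the list, beside 67% and 61.9% of all tested genes. Without J1 replicate 1, Mcm5 passed as lower in EWS-OCT4 cells than in J1 (-0.16), and Cdc6 passed as lower than in OCT4 cells (-0.15) and as higher than in J1 (0.21).

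Most genes of G2 and mitosis differed little. Of 16, 3 were higher and 5 lower in the OCT4 line than in J1, 4 and 3 in the EWS-OCT4 line, and 6 and 3 in the EWS-OCT4 line against the OCT4 line. The median log2 fold changes were -0.085, 0.054 and 0.034. In either direction 50%, 43.75% and 56.25% of these genes were called, below the 67%, 61.9% and 66.5% of all tested genes. Without OCT4 replicate 3 the higher count in the OCT4 line was 1, and without J1 replicate 2 the lower count for EWS-OCT4 versus J1 was 5. Top2a, which encodes the topoisomerase that untangles chromosomes, was the exception in size, with 1179, 1249 and 1271 CPM in the 3 J1 libraries, 684, 656 and 666 in the OCT4 libraries and 609.8, 590.3 and 591 in the EWS-OCT4 libraries. Both stable lines lay well below J1, with log2 fold changes of -0.88 (SE 0.0649, adjusted p = 1.61e-09) and -1.05 (SE 0.0651, adjusted p = 3.68e-10) in edgeR's test. The small difference between the lines (-0.16, adjusted p = 0.0329) was lost in 9 of the 19 alternatives that tested Top2a, 6 of which leave out 1 library. Mki67, the proliferation marker Ki-67, had 749.7, 698 and 866 CPM in the 3 J1 libraries, 894, 809 and 847 in the OCT4 libraries and 1065, 1088 and 1160.2 in the EWS-OCT4 libraries. It was higher in the EWS-OCT4 line than in J1 (0.52, SE 0.0807) and the OCT4 line (0.38, SE 0.0806), while the OCT4 line overlapped J1 (0.14). Ccnb1, the gene for mitotic cyclin B1, stood at 287, 239.7 and 250.0 CPM in the 3 J1 libraries, 199, 177 and 170.2 in the OCT4 libraries and 245, 234 and 230.2 in the EWS-OCT4 libraries. The OCT4 libraries were lowest, -0.51 (SE 0.0792) against J1, and the EWS-OCT4 libraries overlapped J1. Ccna2, Ccnb2 and Bub1, a spindle checkpoint kinase, were called in no comparison of the main fit, with fold changes of -0.14, 0.065 and -0.029 in OCT4 cells and -0.10, 0.097 and -0.093 in EWS-OCT4 cells against J1. Without J1 replicate 2, Ccna2 passed as lower than J1 in OCT4 cells (-0.19) and Bub1 in EWS-OCT4 cells (-0.17). Ccna2 also passed in OCT4 cells without genes of chromosomes 8, 11, 12, X and Y (-0.18). Aurka, a spindle kinase, was not called in any of the 3 either, though its difference between the stable lines (0.13, adjusted p = 0.0761) passed in 7 of 20 alternatives, among them leaving out any 1 J1 replicate.

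Aurkb, the kinase of the chromosomal passenger complex, fell in the EWS-OCT4 line, with 57.1, 56.2 and 55.6 CPM against 88.0, 81.1 and 79.3 in J1 and 81.3, 72.8 and 79.4 in the OCT4 line (-0.56, SE 0.0682 against J1). Fbxo5, which encodes Emi1, an inhibitor of the anaphase-promoting complex, was higher there, at 75.5, 69.6 and 72.1 CPM against 58.6, 53.2 and 56.6 in J1 and 49.7, 49.3 and 50.3 in the OCT4 line. Its fold change was 0.54 (SE 0.0664) between the stable lines. Cdc20, an activator of that complex, was lower in the OCT4 line than in J1 (-0.31, SE 0.0705) and overlapped J1 in the EWS-OCT4 line. Mybl2, the B-Myb factor of the MuvB complex, was higher in the EWS-OCT4 line than in J1 (0.32, SE 0.0732) and the OCT4 line (0.30, SE 0.0732). Plk1, a mitotic kinase, was higher in the EWS-OCT4 than in the OCT4 line (0.29, SE 0.0788). Of the phosphatases that activate CDK1, Cdc25b was lower than in J1 in both lines (-0.46 and -0.50). Cdc25c, the other, had 21.5, 22.0 and 20.5 CPM in J1, 29.9, 32.1 and 31.6 with OCT4 and 21.0, 20.7 and 19.1 with EWS-OCT4. The OCT4 libraries lay above J1 (0.55, SE 0.0783) and above the EWS-OCT4 libraries, which were lower by 0.62 on the log2 scale. Cdk1 itself differed from J1 by 0.19 and 0.17, and Wee1, the kinase that restrains it, by 0.19 and 0.075. The Cdk1 calls (adjusted p = 0.0182 and 0.0298 by edgeR) and the Wee1 call in the OCT4 line (adjusted p = 0.0396) were lost in 6, 8 and 15 of 20 alternatives.

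**Figure D4:**
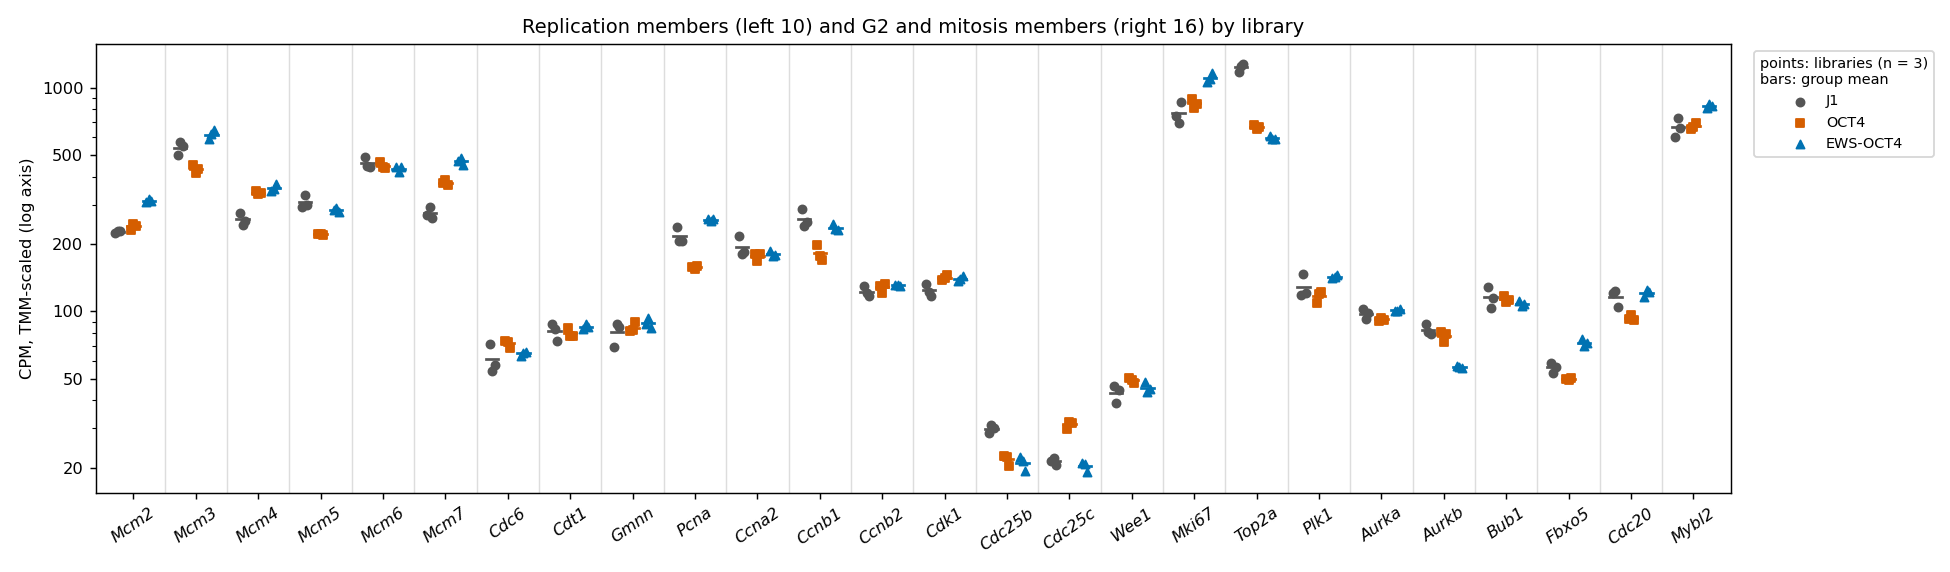
CPM (TMM-scaled, log axis) of the 10 replication members and the 16 G2 and mitosis members in each library, with a bar at each group mean (n = 3). Top2a is far higher in J1 than in both stable lines, Pcna and Mcm5 are lowest in the OCT4 line, and most other mitosis genes lie close together in the 3 groups.

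Some members lie on chromosomes whose genes were lower as a whole in both stable lines. The median log2 fold change against J1 over all tested genes of chromosome 8 was -0.49 in OCT4 cells and -0.45 in EWS-OCT4 cells, of chromosome 11 -0.47 and -0.51, and of chromosome 12 -0.19 and -0.31, against -0.03 and -0.0058 over all autosomes. Chromosome 8 carries E2f4, Rbl2, Mcm5 and Cdt1, chromosome 11 Top2a, Aurkb and Cdc6, and chromosome 12 E2f6. In the OCT4 line Mcm5 (-0.48) stood at its chromosome's median, whereas E2f4 (-1.30) and Top2a (-0.88) stood below theirs and Cdt1 (-0.038) and Cdc6 (0.24) above. In the EWS-OCT4 line Rbl2 (-0.43) and Aurkb (-0.56) were close to their medians, and Top2a (-1.05) was further down. The part of these shifts in the members' values was not tested. Ccne1, E2f8, Cdk6, Ccnd3 and the 5 inhibitors lie on chromosomes 4, 5, 6, 7, 9 and 17, whose medians lay between -0.069 and 0.18. Between the stable lines the medians of chromosomes 8, 11 and 12 were 0.016, -0.058 and -0.053, and no member lies on the X chromosome, whose median differed by -0.51.

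**Figure D5:**
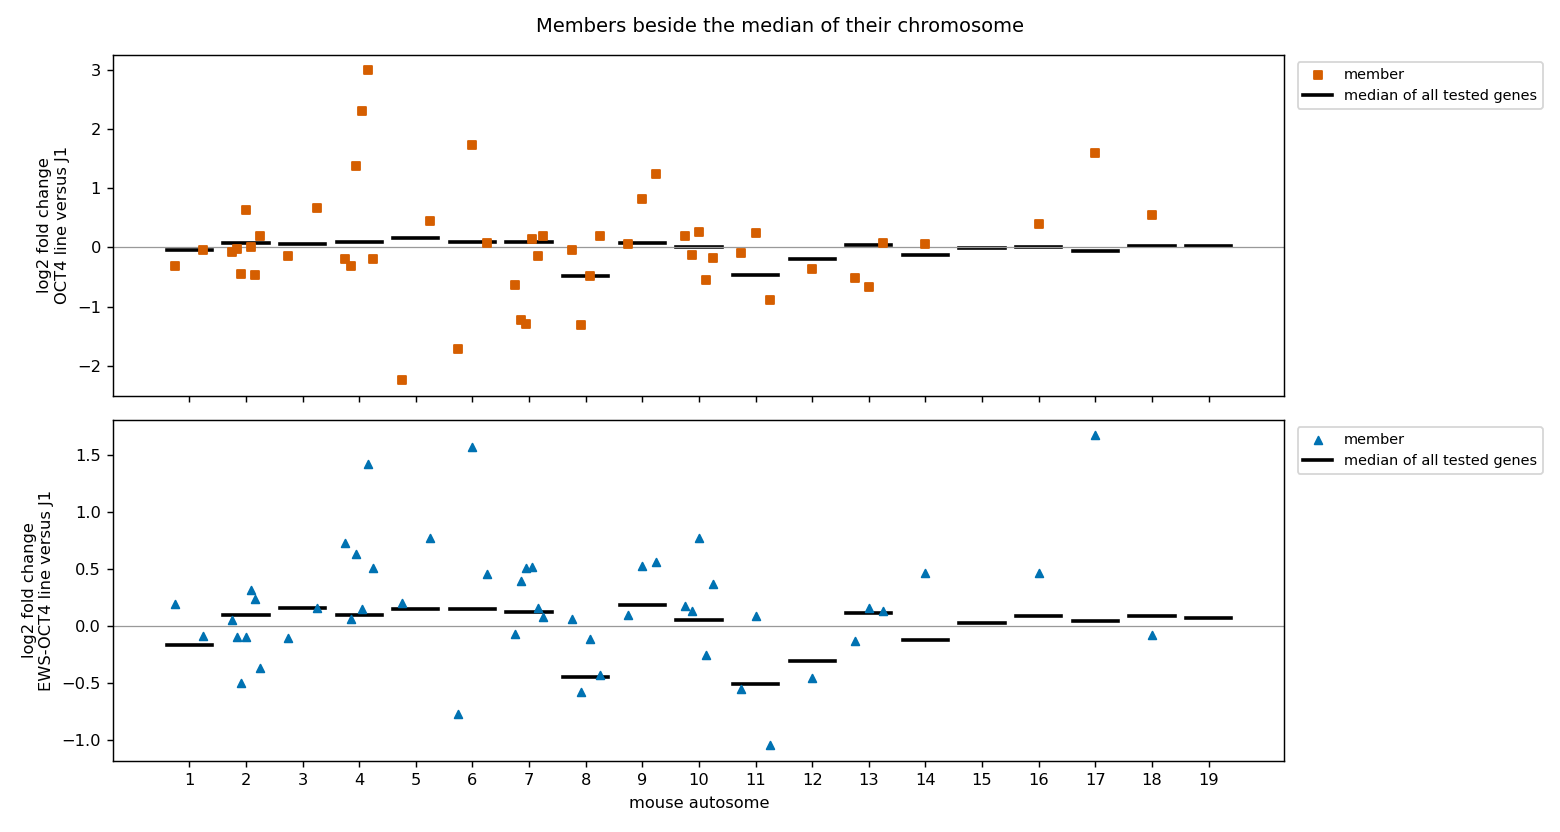
Log2 fold change against J1 (y axis) of each member on its autosome (x axis), for the OCT4 line above and the EWS-OCT4 line below, with a black bar at the median of all tested genes of that chromosome. Chromosomes 8 and 11 have medians near -0.5 in both lines, and E2f4 and Top2a are the lowest points there.

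Another 78 genes of the same pathway, all of them tested, gave 15 higher and 32 lower in the OCT4 line than in J1, 30 and 17 in the EWS-OCT4 line, and 45 and 11 in the EWS-OCT4 line against the OCT4 line. Calls in either direction came to 60.3%, 60.3% and 71.8% of these genes, near the 67%, 61.9% and 66.5% of all tested genes. By direction, all tested genes gave 34.3% higher and 32.7% lower, 30.3% and 31.6%, and 31.9% and 34.6% in the same comparisons. The median log2 fold changes of the 78 genes were -0.12, 0.095 and 0.23. Of 35 other replication genes, 24 were higher and 4 were lower in the EWS-OCT4 than in the OCT4 line. Rfc3, a subunit of the clamp loader, rose by 0.98 (SE 0.0846) and Tyms, thymidylate synthase, by 0.78 (SE 0.0677), while Cdc7, a kinase that fires origins, fell (-0.60, SE 0.0712), as did Rrm2, a subunit of ribonucleotide reductase (-0.49, SE 0.0725). Against J1, 5 of the 35 were higher and 15 lower in OCT4 cells and 15 and 6 in EWS-OCT4 cells. Cdc45, a helicase cofactor, was higher in both (1.06, SE 0.0657 and 0.79, SE 0.0659). Of 31 other mitosis genes, 5 were higher and 14 lower in the OCT4 line than in J1, 11 and 7 in the EWS-OCT4 line, and 16 and 4 between the stable lines. Pttg1, which encodes securin and lies on chromosome 11, stood at 17.6, 16.7 and 15.9 CPM in the EWS-OCT4 line against 71.4, 71.9 and 67.8 in J1 and 66.9, 63.6 and 65.5 in the OCT4 line. Espl1, the gene for separase, the protease that securin restrains, fell against J1 in both lines (-0.71, SE 0.0672 and -1.09, SE 0.0679).

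Among 12 other genes of G1/S control, the inhibitors of the CIP/KIP family stood out in size. Cdkn1a, which encodes p21, had 39.3, 44.0 and 38.3 CPM in the 3 J1 libraries, 102, 110.1 and 119 in the OCT4 libraries and 24.3, 23.3 and 27.7 in the EWS-OCT4 libraries. It was higher than J1 in the OCT4 line (1.45, SE 0.0827) and lower in the EWS-OCT4 line (-0.69, SE 0.0866). Cdkn1c, which encodes p57, had 3.45, 4.43 and 3.76 CPM in the 3 J1 libraries, 19.9, 19.7 and 21.6 in the OCT4 libraries and 30.0, 31.7 and 31.7 in the EWS-OCT4 libraries. Both lines lay above J1, by 2.39 (SE 0.107) and 3.00 (SE 0.105). Tfdp1, the gene for the DP1 partner of E2F factors, was lower in the OCT4 line than in J1, at 95.2, 94.6 and 95.8 against 179, 160.0 and 174 CPM (-0.85, SE 0.0642), and had 152, 154 and 153 in the EWS-OCT4 line. In this list 5 genes were higher and 3 lower in the OCT4 line than in J1, 4 and 4 in the EWS-OCT4 line, and 5 and 3 in the EWS-OCT4 against the OCT4 line. Each comparison thus called 66.7% of the list, near the 67%, 61.9% and 66.5% of all tested genes.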

How the data were processed

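RNA of 9 libraries was extracted with RNAiso Plus and prepared with the CORALL RNA-seq V2 kit, per the labels' protocols. Each library has a deposited table of raw counts, whole numbers by gene symbol. Tools listed in the submitters' processing notes are fastp, STAR, Salmon and GATK, with build GRCm39, but no versions or roles. The sources used here do not give the annotation, strand setting or handling of molecular identifiers, so counts of overlapping or near-identical genes are uncertain.

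Groups and replicate numbers came from titles and library names. Genes were kept by filterByExpr (minimum count 10, minimum total 15), scaled by TMM and tested in 1 fit of all 9 libraries with glmQLFit (robust) and glmQLFTest of edgeR 4.0.16 in R 4.3.3, and Benjamini-Hochberg adjustment over 16562 genes at 0.05. Standard errors were derived from each log2 fold change and its F statistic, and intervals are 95%. The fit was also run on counts simulated from its own model and fitted spread, which cannot show whether that model suits these libraries. No pair of replicates agreed within sampling noise (chi-square over its degrees of freedom, 3.21 to 29.2).

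Members and lists were chosen with earlier results of these data known. Values per library are given for 12 anchor genes and for members with adjusted p under 0.05, a log2 change of at least 1 and at least 5 CPM, with up to 3 more per phase; of the other pathway genes, those with the largest change at 5 CPM or more. Chromosomes and transcript lengths came from GENCODE M21 by symbol and promoters from RefSeq, both on an older build than the counts and joined to them by symbol only. Alternatives were scaling by RLE or the upper quartile, a test without the filter, a filter at 5 CPM in 3 libraries, DESeq2 1.42.0, limma-voom (limma 3.58.1), glmTreat at 1.5-fold, only the 6 libraries compared, the replicate block, no mitochondrial genes or Gm26917, each library left out and, chosen after seeing the data, no genes of chromosomes 8, 11, 12, X and Y.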

Additional observations from a re-analysis of the deposited data

Results flagged for a closer look

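For 5 members the difference from J1 was called in opposite directions in the 2 stable lines. The difference between the lines was called too, which adds little, since it spans both of those differences. How many of all tested genes meet this rule was not counted, so the number of members is not a result about them. The log2 fold change of the EWS-OCT4 line against the OCT4 line was 1.80 for E2f8, 1.62 for Ccne1, 0.70 for Pcna, 0.54 for Fbxo5 and 0.51 for Mcm3. Each was higher than J1 in the EWS-OCT4 line, by 0.51, 0.39, 0.24, 0.37 and 0.19, and lower in the OCT4 line, with log2 fold changes of -1.29, -1.23, -0.47, -0.17 and -0.32. Both differences use the same J1 libraries. The Fbxo5 call in the OCT4 line was lost without J1 replicate 1 or any 1 OCT4 replicate, and the Mcm3 call in the EWS-OCT4 line without J1 replicate 1 or EWS-OCT4 replicate 2 or 3.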

How the results depend on the processing

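No called member changed sign under the 20 alternatives run. Against a fold of 1.5 (glmTreat), which asks for a larger change, the higher and lower members numbered 7 and 2 for EWS-OCT4 versus OCT4, 4 and 1 for EWS-OCT4 versus J1 and 7 and 6 for OCT4 versus J1. Without genes of chromosomes 8, 11, 12, X and Y, an alternative that leaves 43 members, the lower members for EWS-OCT4 versus J1 numbered 5 in place of 9: 5 of the 9 lie on those chromosomes and were not tested, and Ccnb1 passed as lower (-0.20, adjusted p = 0.0341). Leaving out 1 library at a time gave 24 to 25 higher and 11 to 13 lower for EWS-OCT4 versus OCT4, 19 to 24 higher and 8 to 11 lower for EWS-OCT4 versus J1 and 14 to 18 higher and 16 to 19 lower for OCT4 versus J1. The other alternatives kept each of these 6 totals within 1.5 times. Over all tested genes the 1.5-fold test called 1852 and 2854, 1617 and 2232, and 2907 and 2342 in the same order, in place of 5282 and 5730, 5016 and 5233, and 5674 and 5424. The J1 libraries decided the most single calls: leaving out J1 replicate 1 changed 13 of 153 member calls, replicate 2 changed 9 and replicate 3 changed 9, mostly of small differences. The fit with the replicate block gave 24 and 12, 21 and 9, and 17 and 17 higher and lower members in the same order, and changed 1 call, Rbl1 in the OCT4 line (0.20, adjusted p = 0.0343). Same-numbered libraries of different groups did not deviate together beyond a correlation of 0.0737 across genes, though most of these correlations were slightly above 0. J1 replicate 3 did not correlate best with OCT4 replicate 3 (-3.17e-05). OCT4 replicate 2 correlated more with EWS-OCT4 replicate 1 (0.0334) than with EWS-OCT4 replicate 2 (0.0258). The labels do not say that numbers pair libraries, so the main fit used no pairing, and a weak one was not excluded. Depth limits Cdkn2c, with 14 counts over the J1 libraries.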
